A study of Mus musculus with 48 samples.

Results

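The transcripts of 10 mouse genes of the methionine cycle and of small-molecule methylation were followed across liver, isolated hepatocytes, in vitro spheroids, intraocular explants and iris. The genes were Mat1a, Mat2a, Gnmt, Ahcy, Bhmt, Bhmt2, Cbs, Pemt, Nnmt and Inmt. They were picked by name, matched through the symbol column of the deposited corrected table, and all 10 were found among the 46517 mouse genes of the count tables. Bulk RNA had been sequenced from 16 samples, each as 3 technical libraries that were summed here. The livers (n = 3), the naïve irises (n = 3), the cell preparations enriched for hepatocytes by perfusion and density separation (n = 3), the spheroids built from such cells and kept in vitro (n = 2) and the explants (n = 5) all carry the labels WT Albino and C57BL/6N. The study's methods name adult albino B6/J mice. The methods speak of several animals and biological replicates for the RNA-seq, but the labels give no treatment and do not say which animal each sample came from. An explant was a piece of iris with spheroids engrafted on it in the anterior chamber of the eye, taken 2 months post-transplantation (post-tx). The explants are numbered 1, 2, 4, 5 and 6. The mouse plating medium held dexamethasone and insulin, and the day in culture of the sequenced spheroids is not in the labels. Xist was at most 0.335 TPM in all samples, and the summed level of 4 Y-linked genes was at least 87.6 TPM.

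The methionine cycle turns methionine into S-adenosylmethionine (SAM), the methyl donor of the cell, then into S-adenosylhomocysteine once the methyl group has been handed on, then into homocysteine and back to methionine. Liver is the main organ of this cycle in mammals and carries a set of enzymes that other tissues hold at low levels. MAT1A and MAT2A both make SAM, the first being the form of adult hepatocytes and the second the form of most other cells. GNMT, PEMT, NNMT and INMT use SAM on glycine, phosphatidylethanolamine, nicotinamide and indolethylamines. AHCY splits S-adenosylhomocysteine, BHMT and BHMT2 methylate homocysteine again, and CBS sends homocysteine into cysteine synthesis.

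In GRCm38 coordinates, as the count files give them, Mat1a lies at chr14:41105381-41124412 on the plus strand, and the other genes lie on the minus strand. Mat2a spans chr6:72432799-72439558 and Inmt chr6:55170626-55175043. Gnmt spans chr17:46725664-46729168 and Cbs chr17:31612623-31637199. The neighbours Bhmt and Bhmt2 span chr13:93616891-93637961 and chr13:93655720-93674302. Ahcy spans chr2:155059310-155074497, Nnmt chr9:48591877-48605153 and Pemt chr11:59970614-60046489. Reads were counted over all exons of a gene, untranslated parts included, and 7 of the 10 genes have the same ends in GENCODE M21.

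Promoter windows, from 250 bases before to 50 bases after the start in RefSeq (GRCm38.p6), were at hand for 8 of the 10 genes, with 9 windows in all. Those of 4 genes are printed because their levels took different courses below. Mat2a was the gene not lower in iris than in liver, Inmt and Gnmt had the lowest levels in spheroids relative to hepatocytes, and Bhmt was the gene called higher in corrected explants than in spheroids. CG dinucleotides are in capitals.
Mat2a, chr6:72439507-72439806, minus strand: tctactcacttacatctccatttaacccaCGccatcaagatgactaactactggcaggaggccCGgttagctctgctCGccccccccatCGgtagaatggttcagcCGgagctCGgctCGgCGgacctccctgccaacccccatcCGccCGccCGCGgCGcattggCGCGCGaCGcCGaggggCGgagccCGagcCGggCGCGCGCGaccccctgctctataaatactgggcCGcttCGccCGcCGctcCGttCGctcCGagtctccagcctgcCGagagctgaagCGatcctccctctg
Gnmt, chr17:46729116-46729415, minus strand: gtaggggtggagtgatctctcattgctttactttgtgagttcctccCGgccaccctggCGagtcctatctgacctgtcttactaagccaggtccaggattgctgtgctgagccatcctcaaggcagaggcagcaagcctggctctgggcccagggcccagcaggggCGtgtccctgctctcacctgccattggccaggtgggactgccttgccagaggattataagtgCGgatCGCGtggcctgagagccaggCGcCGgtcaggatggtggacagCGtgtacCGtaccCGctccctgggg
Bhmt, chr13:93637709-93638008, minus strand: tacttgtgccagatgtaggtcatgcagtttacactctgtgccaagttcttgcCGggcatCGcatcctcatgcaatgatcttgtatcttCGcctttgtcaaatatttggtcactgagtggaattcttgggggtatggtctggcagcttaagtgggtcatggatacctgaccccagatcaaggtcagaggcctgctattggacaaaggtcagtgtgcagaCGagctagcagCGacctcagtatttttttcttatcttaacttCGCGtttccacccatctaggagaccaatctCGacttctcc
Inmt, chr6:55174941-55175240, minus strand: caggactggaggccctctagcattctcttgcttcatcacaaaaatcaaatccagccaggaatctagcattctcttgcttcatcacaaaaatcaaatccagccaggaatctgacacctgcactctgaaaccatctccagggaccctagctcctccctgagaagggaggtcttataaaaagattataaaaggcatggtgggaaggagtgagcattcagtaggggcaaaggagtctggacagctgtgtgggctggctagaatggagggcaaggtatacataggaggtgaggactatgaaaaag
The Mat2a window held 34 CG, and 93.0% of 32851 mouse promoters of this length held as many or fewer. The Gnmt window held 11, the Bhmt window 8 and the Inmt window 0, and 5.43% of promoters held 0. The median promoter held 7. TATAAA, searched on both strands, was present in the windows of Mat2a and Inmt and in 13.6% of all promoters. CCAAT, searched likewise, was present in those of Mat2a, Gnmt and Bhmt and in 37.4% of all. GGGCGG was present in that of Mat2a and in 35.7% of all. Matches of these motifs did not overlap each other. Among windows not printed, Bhmt2 held 26 CG, Cbs 22, Ahcy 13 and the Pemt windows 3 and 2.

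Total counts per sample ran from 2718518 to 6789648. Levels are given in TPM, which divide counts by exon length before scaling to the library and so can be compared between genes. The 10 hepatocyte markers summed to 12522 to 13884 TPM in livers, 13143 to 15832 in hepatocytes, 11932 to 13215 in spheroids and 1484 to 1744 in irises, where the hepatocyte transcription factor Hnf4a stood at 0.788% and albumin (Alb) at 25.2% of its liver level. Liver 1 stood apart in markers of other cells: those of stellate cells and fibroblasts summed to 1353 TPM in it and to 462 and 525 TPM in livers 2 and 3, and macrophage markers to 1091 against 487 and 590 TPM. The iris share of explants 1, 2, 4, 5 and 6, solved from the deposited tables, was 82, 68, 81, 72 and 59%. Corrected explants are explants after that share of the mean iris TPM was subtracted and the rest divided by what remained. The deposited column of explant 4 departs from this formula, which returned 22.5% of its genes, so the formula was applied to all 5 explants here.

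A call required a log2 fold change beyond 1 in either direction and a p-value, adjusted by Benjamini-Hochberg over all genes tested, under 0.05, with edgeR on counts or limma on log2(TPM + 1) of corrected values. In iris against liver, 9 of the 10 genes were called lower and 0 higher, where 22.1% of 15459 genes tested were called lower and 29.8% higher (51.9% in either direction). Of the calls, 57.4% were higher, and 77.5% were with library size alone as the scaling. The median log2 fold change of the 10 genes was -5.00, against 0.11 over all genes tested. The 10 genes stood in irises at 1.38 to 18% of their liver level, Mat2a apart, within the 0.788 to 25.2% of the hepatocyte markers. Iris and pigment epithelium markers summed to 7906 to 8320 TPM in irises. They also summed to 468 to 482 TPM in livers, 469 to 509 in hepatocytes and 371 to 452 in spheroids. The source of hepatocyte transcripts in irises, and of iris transcripts in livers, hepatocytes and spheroids, was not tested. In hepatocytes against livers 0 of the 10 were called, against 2.72% of 12236 genes in either direction (0.409% higher, 2.31% lower). DESeq2 and limma-voom also called 0 of the 10, and 647 and 20 over all genes. Of the 10, 1 gene, Bhmt, had an unadjusted p under 0.05 in edgeR, as did 3100 of all 12236 genes. In spheroids against hepatocytes 6 of the 10 were called lower and 0 higher, where 9.11% of 12247 genes were called lower and 8.13% higher (17.2% in either direction). Of the calls, 47.2% were higher, and 65.5% were with library size alone. The median log2 fold change of the 10 genes was -1.25, against 0.01 over all genes, and that of the 10 hepatocyte markers was -0.62 with 1, Fah, called lower. Kupffer cell markers summed to 491 to 539 TPM in spheroids against 115 to 219.7 TPM in hepatocytes, and their part in these differences was not tested.

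Against irises, 7 of the 10 genes were called higher in explants and 0 lower, while 6.16% of 16764 genes were called higher and 0.316% lower (6.47% in either direction). All 10 hepatocyte markers were called higher there too, with a median log2 fold change of 3.33. In corrected explants against livers 1 of the 10, Ahcy, was called lower, where 3.16% of 20702 genes were called lower and 12.2% higher (15.3% in either direction). The median of the 10 genes was -0.67, against 0.57 over all genes. That of the 10 hepatocyte markers was -0.36, with 0 called. They ran from -1.19 for Tat to 0.79 for Apoa1, with Alb at 0.78 and Hnf4a at -0.92. Alb averaged 3222 TPM in livers, 2055 TPM in uncorrected explants and 5713 TPM in corrected explants. Apoa1 averaged 2438, 1328 and 4300 TPM in the same order. Removal of duplicates can hold down counts of transcripts this abundant, and its part in these differences was not tested. The markers summed to 13741 to 18745 TPM in corrected explants. In corrected explants against spheroids 1 of the 10, Bhmt, was called higher, where 4.91% of 20702 genes were called higher and 1.28% lower (6.19% in either direction). The median of the 10 genes was 0.27 there, against 0.23 for the 10 hepatocyte markers and 0.46 over all genes. These last comparisons use the same explants. Macrophage markers summed to 2215 to 5684 TPM in corrected explants, 487 to 1091 TPM in livers and 532 to 671 TPM in spheroids, and their part in these differences was not tested. In bulk samples such as these, fewer cells of a type and less RNA per cell cannot be told apart.

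**Figure D1:**
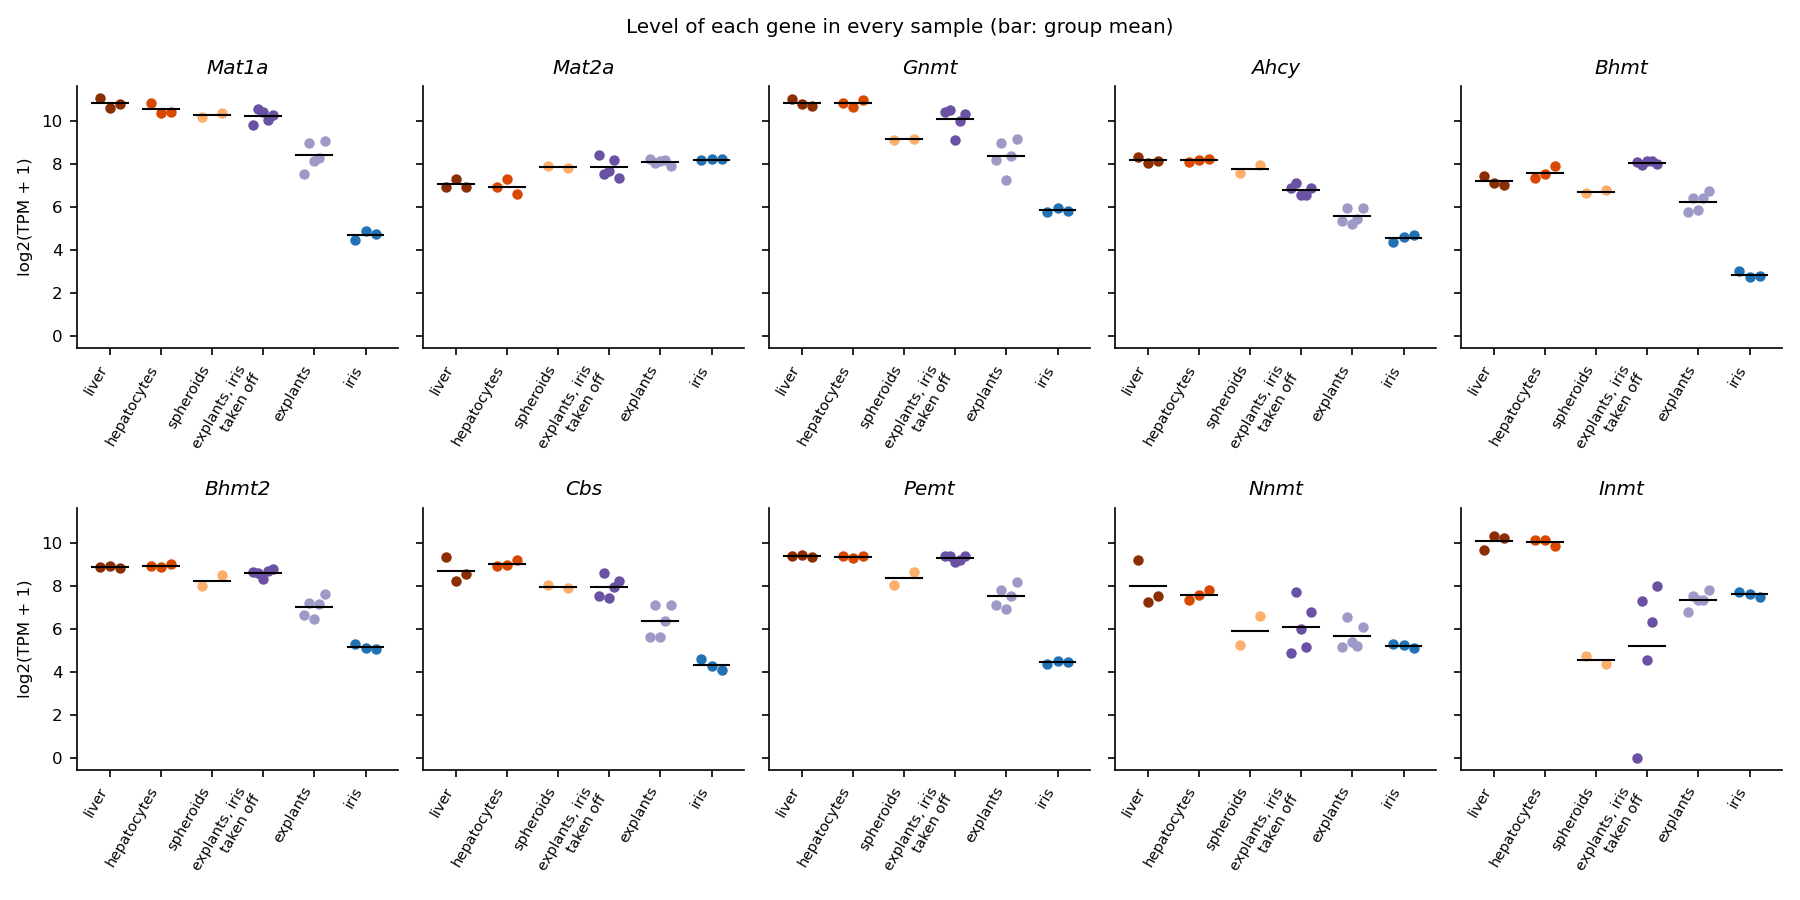
Each panel plots the log2(TPM + 1) of 1 gene in every sample, by group, with a bar at the group mean; explants are shown before and after the iris share was taken off. Irises lie lowest for 7 genes and above all livers and hepatocytes for Mat2a, the 2 spheroid samples lie below irises for Inmt, and the corrected explants of Bhmt lie above all samples of the other groups.

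Mat1a, the SAM synthetase of hepatocytes, stood at 2175, 1584 and 1793 TPM in livers, at 1842, 1353 and 1392 TPM in hepatocytes and at 1169 and 1350.4 TPM in spheroids. In irises it stood at 21.5, 28.8 and 26.5 TPM. Liver and hepatocyte samples overlapped, both spheroids lay below every hepatocyte sample, the higher of them by little, and irises held 1.38% of the liver level. Mat1a was lower in irises than in livers (log2 fold change -7.06, SE 0.16, adjusted p = 4.64e-09) and higher in explants than in irises (3.97, SE 0.43, adjusted p = 0.000574). Explants held 187, 509, 286, 316 and 536 TPM before correction and 922, 1536, 1395, 1062 and 1271 TPM after it. The corrected values lay below all livers and on both sides of the spheroids. Against livers the difference was -0.59 on the log2(TPM + 1) scale (SE 0.19, adjusted p = 0.0711), and against spheroids -0.05 (SE 0.22, adjusted p = 0.915). Spheroids against hepatocytes gave a log2 fold change of -0.59 (SE 0.26, adjusted p = 0.131), which did not pass.

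Mat2a, the SAM synthetase of most non-hepatic and of dividing cells, was highest in irises and lowest in livers and hepatocytes. It stood at 290.2, 299.6 and 302 TPM in irises, at 239 and 227 TPM in spheroids, at 124, 157 and 123 TPM in livers and at 122, 156 and 97.2 TPM in hepatocytes. Irises and spheroids each lay above every liver and hepatocyte sample, yet neither difference was called. The log2 fold change of irises against livers was 0.25 (SE 0.13, adjusted p = 0.119) on TMM-scaled counts. Scaled by library size alone, as TPM are, it was 0.94 (SE 0.12, adjusted p = 0.000125), where the median over all genes was 0.80. That of spheroids against hepatocytes was 0.57 (SE 0.21, adjusted p = 0.0780), and 0.83 by library size alone (SE 0.20, adjusted p = 0.0197), where the median over all genes was 0.27. Explants held 242 to 307 TPM before correction, and subtraction of the iris share took off 72.1 to 85.9% of that. The corrected values of 349, 189, 208, 295 and 163 TPM are what this subtraction left, and the difference of 0.79 from livers did not pass (SE 0.28, adjusted p = 0.0885). The deposited column lists Mat2a at 0 in explant 4, and with the deposited values the difference was -0.76.

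The Mat1a to Mat2a TPM ratio, given as a description with no test, put these courses together. It was 14.1 ± 3.77 in livers (SD, n = 3), 12.7 ± 3.54 in hepatocytes (SD, n = 3), 5.42 ± 0.757 in spheroids (SD, n = 2) and 0.0860 ± 0.0111 in irises (SD, n = 3). Uncorrected explants gave 1.37 ± 0.676 (SD, n = 5), and corrected explants 5.77 ± 2.50 (SD, n = 5). The ratio in the corrected explants ran from 2.64 to 8.12 and included both spheroid values of 4.89 and 5.96. The lowest hepatocyte value was 8.65 and the lowest liver value 10.1. The Mat2a in the corrected ratio is what was left after 72.1 to 85.9% was taken off, so this ratio depends on the iris shares used. With the deposited Mat2a of 0, explant 4 has no such ratio. Mat1a reached 1.07 counts per exon base in a library, Gnmt likewise 1.07 and Inmt 0.626. Removal of duplicates can hold down counts of such genes. With a ceiling of 2 reads starting at each base allowed for, the mean liver TPM rose by 22.2% for Mat1a, 22% for Gnmt and 6.5% for Inmt. The liver ratio was then 18.7.

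**Figure D2:**
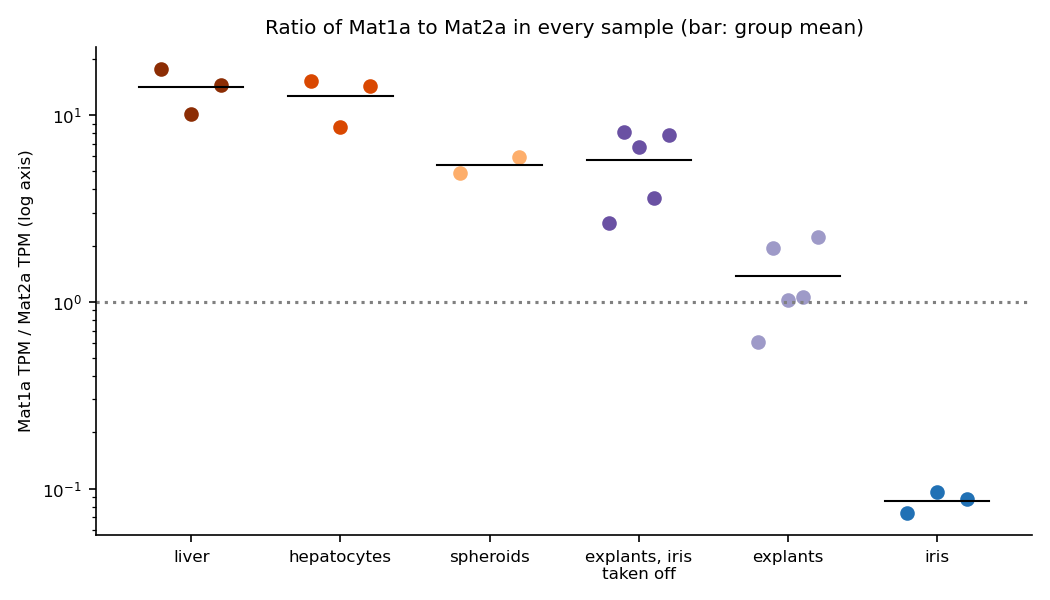
The ratio of Mat1a TPM to Mat2a TPM is plotted on a log axis for every sample by group, with a bar at the group mean and a dotted line at equal levels. With the iris shares used here, spheroids (4.89 and 5.96) and the corrected explants (2.64 to 8.12) lie below all hepatocyte and liver samples. Irises lie under 0.1. The Mat2a of the corrected explants is what was left after 72.1 to 85.9% was taken off.

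Gnmt, which methylates glycine and is the main outlet for surplus SAM in liver, was the other leading transcript of the set. It stood at 2127, 1781 and 1694 TPM in livers and at 1869, 1638 and 2053 TPM in hepatocytes, as high as Mat1a. As for Mat1a, duplicate removal may hold these levels down, and the liver mean rose by 22% with the ceiling on read starts allowed for. Spheroids held 562 and 577 TPM, 30.7% of the hepatocyte mean, and irises 54.7, 62.3 and 56.8 TPM. The groups of spheroids and hepatocytes did not overlap (log2 fold change -2.03, SE 0.23, adjusted p = 0.00131). Gnmt was higher in explants than in irises by 2.81 (SE 0.45, adjusted p = 0.00427). Corrected explants held 1386, 1458, 560.0, 1041 and 1310.0 TPM, of which explant 4 stood at the spheroid level and the other explants between spheroids and livers. Neither the difference from spheroids (0.94, SE 0.38, adjusted p = 0.232) nor that from livers (-0.77, SE 0.31, adjusted p = 0.126) passed. Without explant 4 the difference from spheroids was 1.18 and was called.

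Ahcy, the hydrolase that clears S-adenosylhomocysteine, was the gene called between corrected explants and livers. Livers held 326, 264 and 286 TPM, hepatocytes 276, 291 and 306 TPM, and spheroids 192 and 248 TPM. Corrected explants held 117, 141, 94.8, 95.0 and 119 TPM, below every spheroid and every liver. They were lower than livers by -1.37 on the log2(TPM + 1) scale (SE 0.19, adjusted p = 0.00350), and the difference from spheroids was -0.95 (SE 0.24, adjusted p = 0.0691). Spheroids against hepatocytes gave -0.72 (SE 0.22, adjusted p = 0.0499), within the fold limit and so not called. In irises Ahcy stood at 20.1 to 25.3 TPM, and uncorrected explants were higher than irises by 1.19 (SE 0.25, adjusted p = 0.0144), a call lost without any 1 of the 3 irises (log2 fold change 1.07 to 1.26) or with 1 technical library per sample (0.96). Of the windows of 50 bases in the longest Ahcy transcript, 77.0% also occur in transcripts of other genes, 74.1% in Ahcyl and 33.9% in Gm9826. Such reads map to several places and were not counted by the options in the count files, so Ahcy may be understated in every sample. These copies took 61 and 14 counts in all samples together.

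Bhmt and Bhmt2, which move a methyl group onto homocysteine from betaine and from S-methylmethionine, parted in the explants. Bhmt stood at 178, 138 and 129 TPM in livers, at 163, 187 and 241 TPM in hepatocytes and at 100.3 and 111 TPM in spheroids. Corrected explants held 272, 251, 279.8, 288 and 255 TPM, above every other sample in the series, with a coefficient of variation of 5.89%, the smallest of the 10 genes. Bhmt fell in spheroids against hepatocytes (log2 fold change -1.23, SE 0.26, adjusted p = 0.0124), a call lost without spheroid 1 (-1.05) and with library size alone (-0.97). It was higher in corrected explants than in spheroids by 1.34 (SE 0.17, adjusted p = 0.00675), a call lost with the deposited corrected values. Against livers the difference was 0.87 (SE 0.16, adjusted p = 0.00970), short of the fold limit. It reached 1.00 without liver 1 and 1.01 with iris shares of 84.4, 70.6, 82.1, 75.3 and 62.4% from non-negative least squares, and was then called. Before correction explants held 54.2 to 108 TPM and lay below livers, and the iris part to be taken off made up 3.45 to 9.56% of that.

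Some reads of Bhmt could not be assigned with certainty. Its exons share 187 bases with the antisense gene Gm15622, which took 2074 counts against 13813 for Bhmt, and strand was not used in counting. Of its windows of 50 bases, 11.45% occur in Bhmt1b and 8.74% in the pseudogene Bhmt-ps1, which took 117 and 25 counts. Bhmt2 stood at 466, 486 and 456 TPM in livers and at 479, 469.9 and 519 TPM in hepatocytes, with spheroids at 251 and 364 TPM below both groups. The log2 fold change of spheroids against hepatocytes was -0.98 (SE 0.26, adjusted p = 0.0289), short of the fold limit. It passed the limit with limma-voom at -1.02 and without spheroid 2 at -1.42. Corrected explants held 315 to 435 TPM, below every liver and around the higher spheroid value. Both genes were higher in explants than in irises, Bhmt by 3.74 (SE 0.32, adjusted p = 0.000242) and Bhmt2 by 2.07 (SE 0.31, adjusted p = 0.00290).

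Cbs, which joins homocysteine to serine at the entry of transsulfuration, varied most between livers after Nnmt. Livers held 641, 297 and 374 TPM, with liver 1 the highest, and hepatocytes 488, 501 and 591 TPM. Spheroids held 259 and 239 TPM, below all of these. Cbs was lower in spheroids than in hepatocytes (log2 fold change -1.41, SE 0.22, adjusted p = 0.00355). Irises held 23.3, 18.2 and 16 TPM, and explants were higher by 2.37 (SE 0.46, adjusted p = 0.0115). That call was lost with limma-voom (2.18) and without iris 2 (2.31) or iris 3 (2.25). Corrected explants held 182, 390.1, 170.2, 243 and 303 TPM and spread over the spheroid and liver ranges, and their differences from spheroids (-0.02, SE 0.35) and livers (-0.75, SE 0.34) did not pass (adjusted p = 0.979 and 0.176).

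Pemt, which makes phosphatidylcholine in hepatocytes and is a large user of SAM, came closest to liver in the explants. Livers held 675, 698 and 645 TPM, hepatocytes 666, 625 and 666 TPM, and spheroids 265 and 400.5 TPM. Corrected explants held 659.9, 663, 544, 595 and 669 TPM, all above both spheroids and 3 of the 5 within the liver range. The fall in spheroids against hepatocytes was -1.28 on the log2 scale (SE 0.27, adjusted p = 0.0129), and it lost its call without spheroid 1 (-0.92). Corrected explants differed from spheroids by 0.94 (SE 0.20, adjusted p = 0.0415), short of the fold limit, and from livers by -0.11 (SE 0.12, adjusted p = 0.576). Irises held 20.8 ± 0.848 TPM (SD, n = 3), the iris part was 4.28 to 14% of the uncorrected explant level, and explants were higher than irises by 3.32 (SE 0.36, adjusted p = 0.000629).

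Nnmt, which methylates nicotinamide and is made by hepatocytes, adipocytes and fibroblasts, was the most uneven gene among the livers. Liver 1 held 592 TPM and livers 2 and 3 held 151 and 184 TPM, in the same order as their stellate cell and fibroblast markers (1353, 462 and 525 TPM), whose part in the difference was not tested. Hepatocytes 1, 2 and 3 held 161, 190.1 and 223 TPM, where these markers summed to 178, 132 and 122 TPM, in the opposite order. In irises, where Nnmt was low, these markers summed to 2230 to 2534 TPM. Spheroids held 36.7 and 96.0 TPM, below all hepatocyte samples (log2 fold change -1.82, SE 0.42, adjusted p = 0.0185), a call lost without hepatocyte 3 (-1.65). It was -1.21 without spheroid 1 and -2.84 without spheroid 2. Irises held 37.7, 37.5 and 33.9 TPM, lower than livers by -3.94 (SE 0.48, adjusted p = 7.87e-05) and by -3.16 without liver 1. Explants held 34.9, 92.2, 41.2, 35.9 and 66.1 TPM and did not pass against irises (0.69, SE 0.36, adjusted p = 0.248). Corrected explants held 28.2, 211, 61.8, 34.7 and 109 TPM, from below the spheroids to above 2 of the livers.

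Inmt, which methylates tryptamine and related amines and thioethers, had the largest fall of the set in spheroids. Livers held 809, 1271 and 1186 TPM and hepatocytes 1122, 1126 and 926 TPM. Spheroids held 25.7 and 19.6 TPM, from 54 and 39 counts, which was 2.14% of the hepatocyte mean. The log2 fold change of spheroids against hepatocytes was -5.88 (SE 0.25, adjusted p = 3.78e-05). The 2 spheroid samples lay far below all hepatocyte samples and below all irises. In that comparison the 10 hepatocyte markers ran from -0.23 for Apoa1 to -1.18 for Fah (adjusted p = 0.00611), the one called, with Asgr1 at -0.98 (adjusted p = 0.0207). Irises held 212, 198 and 177 TPM, 18% of the liver mean and the highest such share among the 9 genes called lower, by -3.37 (SE 0.21, adjusted p = 8.93e-07).

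Uncorrected explants held 108, 183, 163, 163 and 219.6 TPM of Inmt and overlapped irises, with a log2 fold change of -0.11 (SE 0.22, adjusted p = 0.786). The iris part to be taken off was 149, 72.7, 97.4, 86.6 and 52.6% of the Inmt level of explants 1, 2, 4, 5 and 6. Corrected values were accordingly 0, 156, 22.2, 77.7 and 254 TPM. All 5 lay below every liver, yet the spread was such that the difference of -4.84 from livers did not pass (SE 1.62, adjusted p = 0.0775), and without explant 1 it was -3.53 and was called. The difference from spheroids was 0.67 (SE 2.03, adjusted p = 0.860).

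**Figure D3:**
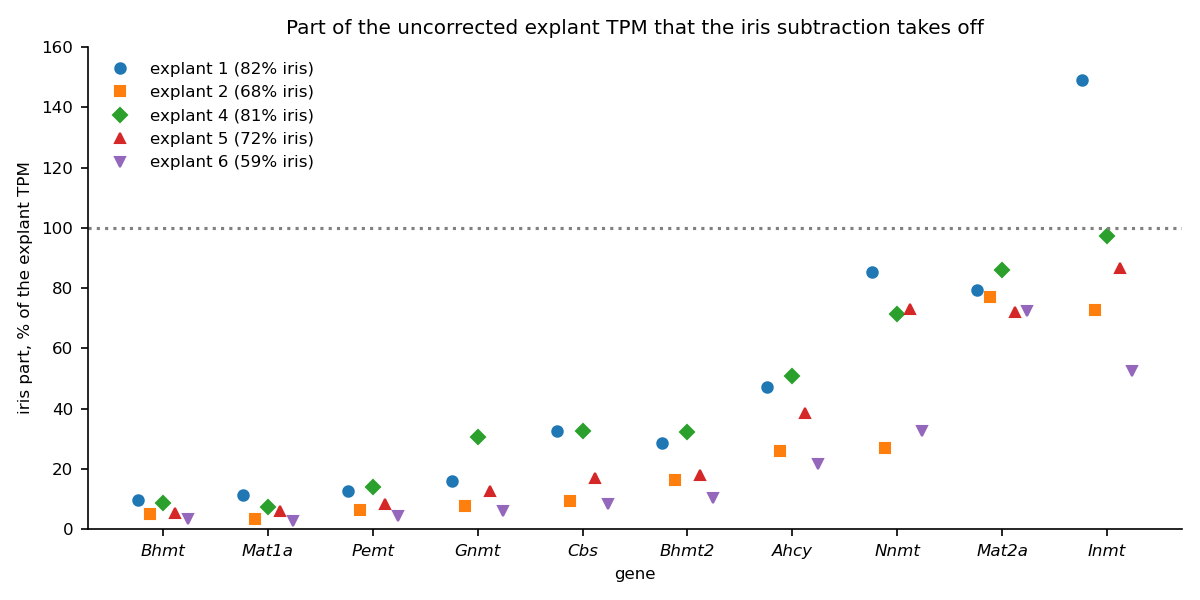
For each gene, the points give the share of the uncorrected TPM of each explant that the iris subtraction takes off, in percent, with genes ordered by their median and a dotted line at 100%. The share stays under 15% in all 5 explants for Bhmt, Mat1a and Pemt, lies between 72.1 and 85.9% for Mat2a, and passes 100% for Inmt in explant 1 (149%).

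How much of a corrected value rested on the subtraction thus differed between genes. The share taken off had a median over the explants of 5.35% for Bhmt, 5.84% for Mat1a, 8.25% for Pemt, 12.5% for Gnmt, 16.9% for Cbs, 17.8% for Bhmt2 and 38.4% for Ahcy. It was 71.5% for Nnmt, 77.0% for Mat2a and 86.6% for Inmt. The rest was divided by what remained after iris shares of 59 to 82%. Genes with little taken off therefore depend on these shares too. Bhmt held 54.2 to 108 TPM before correction and 251 to 288 TPM after it. The coefficients of variation of the corrected values were 84.6% for Nnmt and 102% for Inmt, and at most 35.3% for the other 8 genes.

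**Figure D4:**
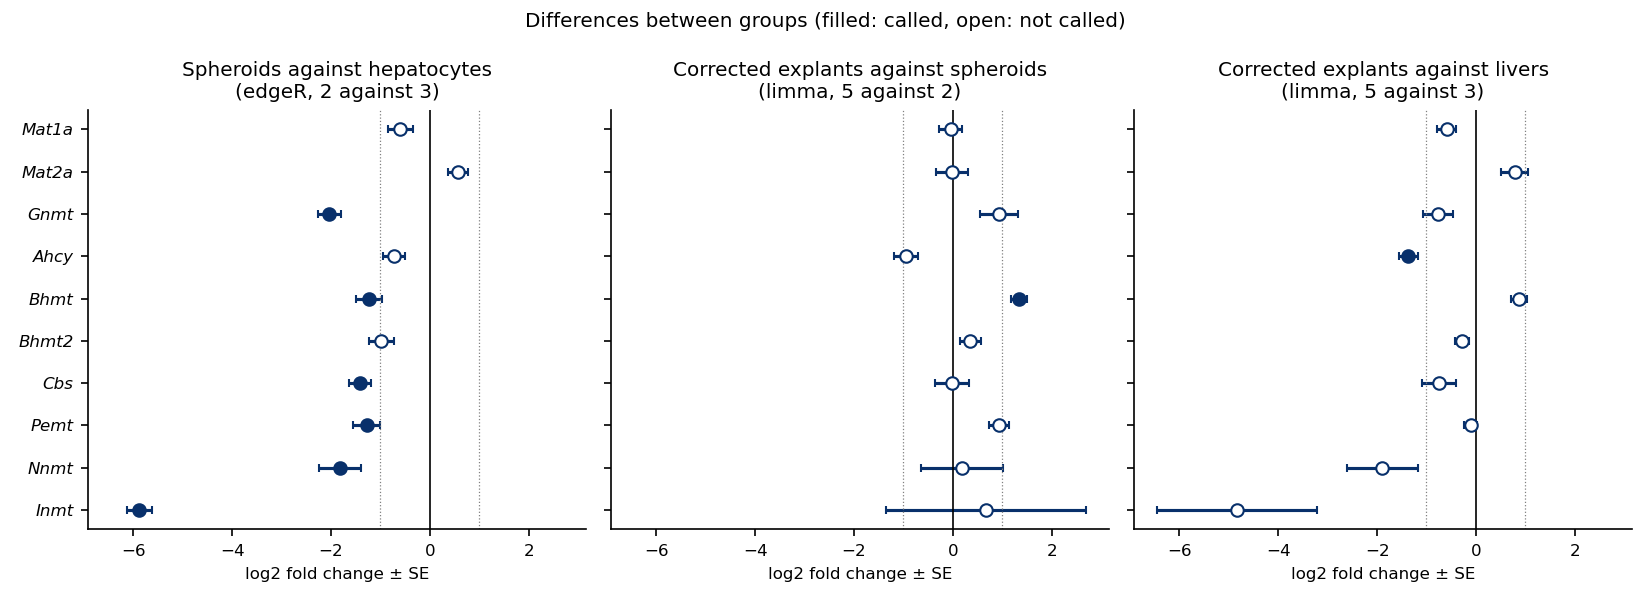
Points give the log2 fold change of each gene with its SE in spheroids against hepatocytes, corrected explants against spheroids and corrected explants against livers; filled points were called, dotted lines mark the fold limit. In spheroids 6 genes were called, with Inmt at -5.88, while Bhmt (1.34) and Ahcy (-1.37) were the genes called in the comparisons of corrected explants.

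Beyond the 10 genes, 7 lists held 106 genes of the surrounding pathways, none of them a member. In spheroids against hepatocytes 23 of 99 tested were called lower and 8 higher, with a median log2 fold change of -0.28, beside 9.11% and 8.13% of all genes and a median of 0.01. Genes of betaine and choline supply were called lower in 6 of 14 and higher in 0 (median -0.84). Among them were Sardh, a mitochondrial enzyme that oxidises the sarcosine GNMT makes (-2.42, adjusted p = 0.000919), and the ethanolamine kinase Etnk2 (-2.69, adjusted p = 0.00153). Genes of transsulfuration and cysteine use were called lower in 5 of 12 and higher in 1 (median -0.68), with the sulfurtransferase Tst at -2.49 (adjusted p = 0.000283).

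The folate list went both ways, with 5 of 20 called higher and 4 lower (median -0.21). The mitochondrial folate enzymes Mthfd2 (4.43, adjusted p = 0.00101) and Mthfd1l (2.97, adjusted p = 0.0191) rose most. Mthfd2 stood at 80.9 TPM in spheroids against 3.02 TPM in hepatocytes and 20.5 TPM in corrected explants, where it was higher than in livers by 2.51 (adjusted p = 0.00657) and lower than in spheroids by -1.97 (adjusted p = 0.0388). Mthfd1l and Aldh1l2 were also lower in corrected explants than in spheroids, by -3.46 and -2.40. Both calls rest on values near the floor. The 2 genes averaged 11.7 and 2.07 TPM in irises, and 6.37 and 1.25 TPM in uncorrected explants. Corrected explants averaged 0.774 and 0.181 TPM, with a lowest value of 0 for both, and spheroids 14.1 and 5.26 TPM. Polyamine and salvage genes were called higher in 2 of 12 and lower in 1, with spermine oxidase, Smox, at 2.91 (adjusted p = 0.00512).

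Other methyltransferases were called lower in 2 of 16 and higher in 0 in spheroids, and MAT and AHCY partners in 1 of 11 and 0, both near the 9.11% called lower over all genes. Nicotinamide genes were called lower in 4 of 14 and higher in 0. Among all 7 lists, corrected explants against livers gave 5 genes higher and 11 lower of 101 tested, with a median of -0.55, while 12.2% of all genes were called higher and 3.16% lower, with a median of 0.57. Smox (2.42) and the maintenance DNA methyltransferase Dnmt1 (2.41) were among the higher, and Mthfd1l (-2.83), Carnmt1 (-2.53) and Ahcyl1 (-1.88) led the lower. These last 3 genes averaged 11.7, 10.5 and 57.4 TPM in irises, 6.37, 7.79 and 44.6 TPM in uncorrected explants and 0.774, 0.832 and 11.1 TPM in corrected explants. Smox and Dnmt1 also had much iris signal taken off. They averaged 12.6 and 19.3 TPM in irises and 13.7 and 21.7 TPM in uncorrected explants. Corrected explants averaged 18.5 and 30.8 TPM, and livers 2.47 and 4.74 TPM. Against spheroids, corrected explants had 2 genes higher and 6 lower of 101 tested (median -0.43), beside 4.91% and 1.28% of all genes (median 0.46), and the higher were Gatm, of creatine synthesis (3.04), and Etnk2 (1.63).

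In explants against irises 18 of 103 list genes were called higher and 0 lower, beside 6.16% and 0.316% of all genes, led by Ftcd (4.50), Mettl7b (4.00) and Tdo2 (3.71). The same 3 genes were the lowest in irises against livers, at -7.77, -7.19 and -6.69, where 57 of 102 were called lower and 12 higher, beside 22.1% and 29.8% of all genes. Slc7a5, a methionine and leucine transporter, was the highest there (3.28), followed by Bcat1 (2.87) and Ahcyl2 (2.52). In hepatocytes against livers 0 of 98 were called by edgeR, and 26 had an unadjusted p under 0.05. Of all 12236 genes tested there, 333 were called and 3100 had an unadjusted p under 0.05.

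**Figure D5:**
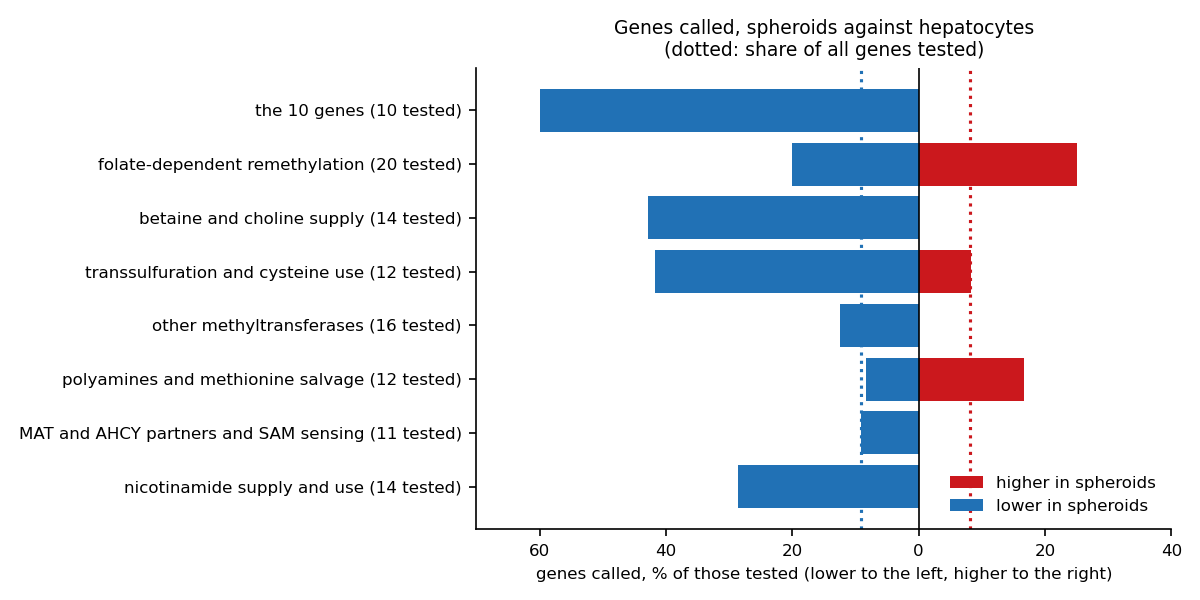
Bars give the percent of tested genes called higher (right) and lower (left) in spheroids against hepatocytes for the 10 genes and each of the 7 pathway lists, and dotted lines give the shares over all genes tested (8.13% higher, 9.11% lower). The 10 genes have 6 called lower and 0 higher, and the folate list is the one with more called higher (5) than lower (4) besides the polyamine list (2 and 1).

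Genes whose levels ran most like those of a member were found by Pearson correlation of log2(TPM + 1) over the 8 liver, hepatocyte and spheroid samples, among 8488 genes with a mean of at least 10 TPM. With 3 groups in 8 samples, such values mainly rank genes by their level in spheroids. Inmt ran with Acy3 (r = 0.999), Abca8a (0.998) and Ces1f (0.995). Gnmt ran with Igfbp2 (0.995), Gstk1 (0.993) and Agxt (0.993). Mat2a ran with Cfdp1 (0.996), Ddx24 (0.990) and Cln3 (0.985), and Mat1a with Serhl (0.984), H2-Q1 (0.961) and 4930562F07Rik (0.958).

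Bhmt ran with the antisense Gm15622 (0.983), with which it shares reads, then Slc25a25 (0.964) and Gm17041 (0.955). Bhmt2 ran with Slc27a5 (0.991), Ces1g (0.987) and Gm27216 (0.987), and Pemt with Gm27216 (0.994), Upb1 (0.991) and Hrg (0.989). Cbs ran with Gm17041 (0.969), Gm18776 (0.964) and Mccc1 (0.949). Ahcy ran with Sec16b (0.966), Ces1b (0.962) and Hgd (0.962), and Nnmt with Ahcy (0.960), Ces1b (0.938) and Cdhr5 (0.938). Within the set, Bhmt2 and Pemt (0.982) and Gnmt and Inmt (0.972) ran closest, and Mat2a ran against each of the other 9 genes (-0.609 to -0.916).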

How the data were processed

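The authors prepared 3 Smart-seq3 libraries per sample, aligned reads to mm10 with TopHat2, removed duplicates with UMI-tools and SAMtools and counted exon reads with featureCounts (1.4.6-p5 per the file headers). The options shown count a read for every gene it overlaps and set neither strand nor multi-mapping. The deposited counts per library were summed per sample and equalled the deposited summed counts in 100% of values. The deposited TPM equalled those recalculated here from counts and exon lengths. In the deposited corrected table the explant columns hold a TPM-scaled signal from which the authors had subtracted an iris part. Exon lengths came from the same files.

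Members and lists were chosen with earlier results of these data known. Groups came from the labels, 3 livers, 3 irises, 3 hepatocyte samples, 2 spheroid samples and 5 explants. The study's methods speak of biological replicates, but the labels do not tie each sample to an animal, so p-values measure the spread between these samples. Each pair of groups was fitted alone on counts with the quasi-likelihood test of edgeR 4.0.16 in R 4.3.3, after filterByExpr and TMM scaling, and corrected values with limma 3.58.1 (trend) on log2(TPM + 1), whose fold changes understate those of low genes. The SE given with edgeR was derived here as the absolute log2 fold change divided by the square root of the F statistic. Thresholds were an adjusted p of 0.05 and a log2 fold change of 1. Named genes are the members, up to 3 called list genes with the largest and up to 3 with the smallest fold change per comparison, marker lists, and the 3 genes most like each member. Alternatives were DESeq2 1.42.0, limma-voom, other scalings, filters, corrections, pseudocount 0.1, a replicate block, allowance for a ceiling of 2 reads starting at each base, and each sample left out. Fits were tested on simulated counts that held no iris part, so limma after the iris subtraction was not tested in its own setting. Total counts were 2718518 or more per sample. Python 3.11.15 with pandas 2.3.3 made tables and matplotlib 3.10.9 figures. Protein sequences and reads were not analysed here.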

Additional observations from a re-analysis of the deposited data

How the results depend on the processing

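Depth and sample number limit what can be read here. Spheroids have 2 samples, Inmt in them rests on 54 and 39 counts, and the corrected values of Inmt, Nnmt and Mat2a are what a large subtraction left. The numbers called in irises against livers (9) and in hepatocytes against livers (0) were equal under all alternatives, and the number in spheroids against hepatocytes (6) ran from 4 to 8 with single samples left out, 4 without spheroid 1 and 8 without spheroid 2. Explants against irises gave 5 to 7. The cause of the changes below was not tested except where named.

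With explants uncorrected, and so mixed with iris by construction, 9 of the 10 genes were called against livers and 5 against spheroids. Of all 20702 genes tested, 9000 and 7526 were called in these fits. Bhmt was then -0.95 against livers, and against spheroids Gnmt was -0.75, Bhmt -0.47, Bhmt2 -1.21, Nnmt -0.24, Pemt -0.85 and Mat2a 0.25. With iris shares from non-negative least squares 2 members were called against livers and 2 against spheroids, beside 2752 and 1128 of all genes. Pemt was 0.03 against livers, and Mat1a was 0.10 and Cbs 0.11 against spheroids. With no fold limit 2 members were called in each, since Bhmt (livers) and Pemt (spheroids) joined, beside 3400 and 1316 of all genes. With the deposited corrected values 0 members were called against spheroids by limma, beside 504 of all genes. Of the members, 3 had an unadjusted p under 0.05, and Bhmt stood at 1.34. Mat2a was then -0.76 against livers, Nnmt -0.02 and Inmt -0.23 against spheroids. With library size alone in hepatocytes against livers, Mat2a was -0.09, Inmt -0.02 and Pemt -0.02, and with 1 technical library per sample Mat2a was -0.03. With the ceiling on read starts allowed for, Mat2a was 0.06 in corrected explants against spheroids and the liver Mat1a to Mat2a ratio 18.7.

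Replicate numbers did not pair the samples: same-numbered samples correlated between -0.108 and 0.135 in their deviations from the group means. With the number as a replicate block, limma called 0 members in corrected explants against livers (Ahcy -1.18) and 0 against spheroids (Bhmt 1.30). There 1 and 3 members had an unadjusted p under 0.05. Over all 20702 genes that fit also called 0 in both comparisons, so its 0 is not particular to the members. With the block, edgeR called 6 members and 1985 of all 12247 genes in spheroids against hepatocytes. Mat2a was then 0.03 in explants against irises, and against spheroids Mat2a was 0.14, Cbs 0.10 and Inmt -0.90.

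Leaving out single samples gave 1 to 2 called genes in corrected explants against livers (2 without explant 1 or liver 1) and 1 to 2 against spheroids (2 without explant 4). In explants against irises Mat2a ran from -0.06 to 0.01 and Inmt from -0.31 to 0.02. In hepatocytes against livers Mat2a ran from -0.15 to 0.18, Nnmt from -0.84 to 0.30 (without liver 1) and Inmt from -0.12 (without liver 1) to 0.24. In corrected explants against spheroids Mat1a ran from -0.15 to 0.06, Mat2a from -0.16 to 0.12, Cbs from -0.19 to 0.11, Nnmt from -0.50 to 0.87 and Inmt from -0.02 to 1.98. Of the fold changes of single genes, 365 kept direction and call with 1 sample left out and 531 under the other alternatives, 22 turned direction in each, and the others gained or lost a call.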
